A study of Mus musculus with 6 samples.

Results

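Small nucleolar RNA (snoRNA) host genes are transcribed genes whose introns hold snoRNAs, the short RNAs that guide the chemical modification or the cutting of ribosomal RNA. After splicing, the snoRNA is trimmed out of the intron, and the joined exons remain as a long RNA that is mostly non-coding. Many such hosts begin with a run of pyrimidines (a TOP start, shared with ribosomal protein mRNAs), and several are short-lived because translation exposes them to nonsense-mediated decay. The host genes described here are Snhg1, Snhg3, Snhg5, Snhg6, Snhg8, Snhg11, Snhg12 and Gas5, chosen by symbol. They are 8 of the 53379 genes listed per library.

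RNA of small extracellular vesicles, membrane particles that cells release, was sequenced from cultures of wild-type mouse embryonic cortical neurons. HypEV stands for vesicles of neurons that the labels give as treated with OGD/R, which the series text calls hypoxic, and had 3 libraries. NorEV stands for vesicles of control neurons, called normoxic there, and had 3 libraries. The comparison asks which vesicle RNAs differ between these neurons. The labels do not spell out OGD/R. They also leave it unsaid whether the replicates came from different cultures. The p-values below therefore reflect the spread among 6 libraries, part of which may be technical.

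Values are FPKM, a fragment count divided by gene length and by the library's total. HypEV libraries held 1320916 to 2141611 fragments counted on genes, and NorEV libraries 1092724 to 1494499. Entries near-identical to Gm23935, a group of 6 genes, took 49.6%, 1.97% and 24.5% of the fragments in HypEV 1, 2 and 3, against 4.34%, 0.561% and 0.303% in NorEV 1, 2 and 3. A gene's FPKM is lowered by that share, so differences are also given with FPKM rescaled to the fragments outside this group. The 12 neuron markers summed to 83.0 to 135 FPKM in HypEV libraries and 103 to 139 in NorEV libraries, and none was at 0 in all libraries. Of 7 astrocyte, 6 oligodendrocyte, 6 microglia and 6 endothelial and mural markers none was at 0 in all libraries either. Only 589 of 21865 protein-coding genes were at 0 in all libraries, so these counts cannot show which cell types were present. The median neuron marker had 8.55 ± 2.89 FPKM in HypEV and 8.92 ± 2.83 in NorEV (SD, n = 3 each, here and for the next 4). The median astrocyte marker had 9.47 ± 4.75 in HypEV and 11.5 ± 0.941 in NorEV, and the median endothelial or mural marker 8.38 ± 4.48 in HypEV and 12.4 ± 5.67 in NorEV. The median microglia marker had 7.002 ± 1.37 in HypEV and 8.13 ± 1.70 in NorEV, and the median oligodendrocyte marker 4.51 ± 1.69 in HypEV and 5.50 ± 1.69 in NorEV. Endothelial and mural markers summed to 33.6 to 85.9 FPKM in HypEV libraries and 60.8 to 124 in NorEV libraries. The part of these cell types in the results below was not tested. Fewer vesicles that carry an RNA and less of it per vesicle cannot be told apart in such libraries.

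The 8 hosts hold 31 annotated snoRNA genes of 60 to 205 nucleotides on their own strand (GRCm38, GENCODE M21), Gas5 with 10, Snhg1 with 8, Snhg12 with 5, Snhg3, Snhg5 and Snhg11 with 2 each, and Snhg6 and Snhg8 with 1 each. Snhg12 (chr4:132308623-132311024) and Snhg3 (chr4:132348014-132353686) lie 36989 bases apart on opposite strands of chromosome 4, and Gas5 (chr1:161034422-161038539) and Snhg6 (chr1:9941959-9944118) share chromosome 1. The others are Snhg8 (chr3:123507552-123508404), Snhg11 (chr2:158375638-158386145), Snhg5 (chr9:88521050-88522929) and Snhg1 (chr19:8723475-8726443). Snhg11 is annotated as protein-coding and the other 7 as non-coding. Over their whole length, 27 of the 31 lie in an exon of at least 1 transcript of the host. All 27 were listed at 0 in all 6 libraries. Of the 4 that are not wholly inside such an exon, 3 had reads: Snora73a and Snora73b of Snhg3, and Gm25129 of Snhg11. Snord87, in an intron of Snhg6, was at 0.

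The sequences of these counted snoRNAs, and of 2 that were listed at 0 from exon-covered positions, show what the hosts carry. They are reference transcripts of GENCODE M21, 5′ to 3′, and capitals mark the ACA box near the 3′ end of the H/ACA class, or the C box (TGATGA) and the D box (CTGA) of the C/D class.
Snora73a: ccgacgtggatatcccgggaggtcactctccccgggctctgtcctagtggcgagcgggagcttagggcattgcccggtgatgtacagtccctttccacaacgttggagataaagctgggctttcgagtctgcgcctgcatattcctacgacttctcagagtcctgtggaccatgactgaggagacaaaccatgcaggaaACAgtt
Snora73b: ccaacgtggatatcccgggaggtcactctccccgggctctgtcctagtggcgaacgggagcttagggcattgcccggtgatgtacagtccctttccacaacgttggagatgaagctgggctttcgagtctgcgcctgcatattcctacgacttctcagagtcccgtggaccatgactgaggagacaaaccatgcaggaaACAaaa
Gm25129: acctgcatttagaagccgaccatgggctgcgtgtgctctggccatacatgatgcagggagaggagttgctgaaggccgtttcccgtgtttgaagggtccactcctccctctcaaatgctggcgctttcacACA
Gm25187: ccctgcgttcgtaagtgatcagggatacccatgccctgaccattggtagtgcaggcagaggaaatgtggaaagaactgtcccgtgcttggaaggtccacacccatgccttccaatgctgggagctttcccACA
Snord47: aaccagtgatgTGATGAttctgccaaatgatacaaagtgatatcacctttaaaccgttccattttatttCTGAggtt
Snora73a and Snora73b, the U17 RNAs that take part in the cutting of the ribosomal RNA precursor, differ at 7 of 205 positions, so reads of one may be placed on the other. A stretch of Gm17300, a gene on the opposite strand, is near-identical to both as well. Whether their reads were counted there was not tested. Gm25129 and Gm25187, both of 133 nucleotides in Snhg11, are the same base at 42.1% of their positions. Gm25129 lies in an intron and was counted, and Gm25187 lies in an exon of a Snhg11 transcript and was at 0. Snord47, a C/D box RNA of Gas5, stands here for the 10 snoRNA genes of that host, all of them at 0.

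**Figure D1:**
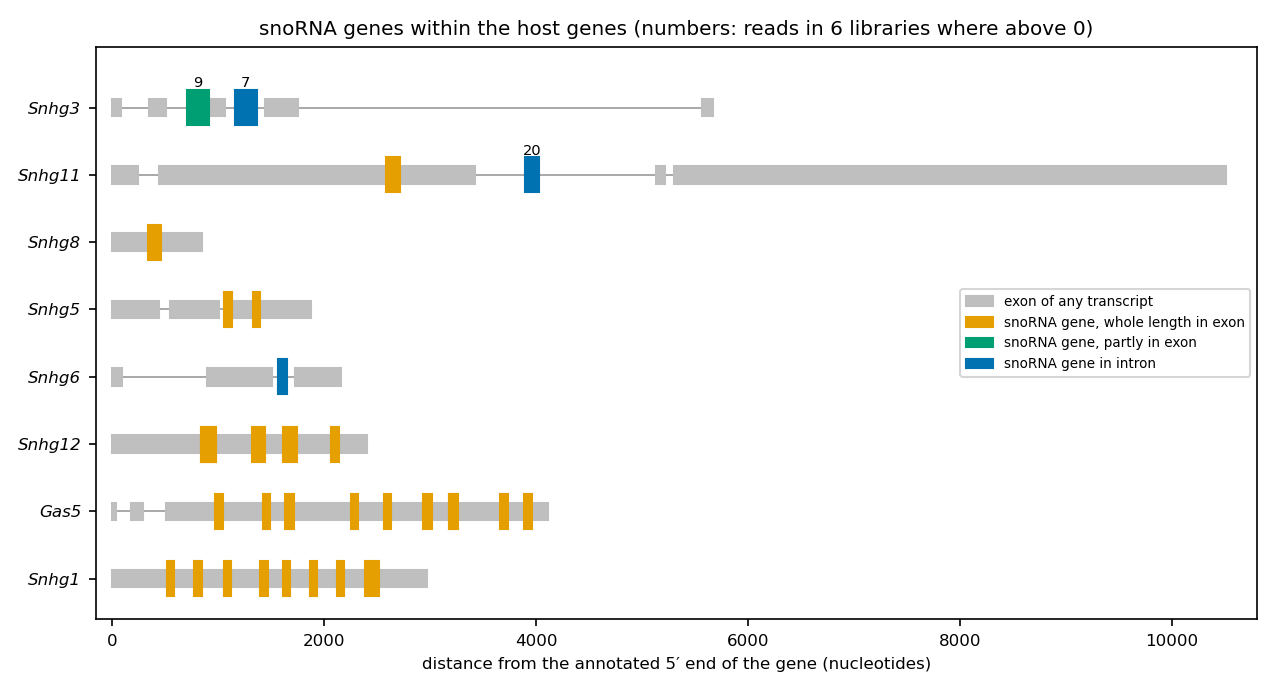
Each host is drawn from its annotated 5′ end (x axis, nucleotides), with exons of any transcript in grey and snoRNA genes in colour by their place. Numbers give reads summed over the 6 libraries where above 0; the 27 snoRNA genes inside an exon had none, and the counted ones were Snora73a (9) and Snora73b (7) in Snhg3 and Gm25129 (20) in Snhg11. Snora16a in Snhg12 and Snord80 in Gas5 are annotated as 2 overlapping genes each.

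The same held for snoRNA genes elsewhere. Among those covered over their whole length by a same-strand exon of a different gene, 107 of 108 had no read in any library (99.1%). Among those outside such exons, 413 of 1334 had none (31.0%). A value of 0 for an exon-covered snoRNA gene therefore does not show that its RNA was absent. Exons of other genes on the same strand, mostly these snoRNA genes, cover 17.8% of the exon bases of Gas5, 20.95% of Snhg1, 19.6% of Snhg12, 15.2% of Snhg8, 8.32% of Snhg5, 1.56% of Snhg11 and 0% of Snhg6. In Snhg3 it is 29.8%, shared with the coding gene Rcc1 as well as Snora73a. On the opposite strand, exons of Gm17300 cover 705 of the 986 exon bases of Snhg3. Those of Mcmdc2 cover 127 of the 1146 exon bases of Snhg6. Whether host values include reads from these stretches was not tested.

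The starts of the hosts differ in their pyrimidine run. Of the 8 hosts 7 have an entry among 32851 RefSeq starts (GRCm38.p6). The windows below run from 20 bases before the start to 30 from it, and capitals mark the longest unbroken run of C or T within 20 bases of the start.
Snhg1, chr19:8723467-8723516, plus strand: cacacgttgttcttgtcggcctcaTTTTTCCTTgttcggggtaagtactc
Snhg12, chr4:132308658-132308707, plus strand: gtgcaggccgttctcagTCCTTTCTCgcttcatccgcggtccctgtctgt
Gas5, chr1:161035146-161035195, plus strand: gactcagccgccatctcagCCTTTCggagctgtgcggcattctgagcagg
Snhg11, chr2:158375693-158375742, plus strand: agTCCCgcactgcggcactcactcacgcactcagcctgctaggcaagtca
The run had 9 bases in Snhg1 and Snhg12, a length reached by 10.7% of all entries. It had 7 in Snhg5 and Snhg8 (24.3% of entries), 6 in this start of Gas5 (37.5%), 5 in Snhg3 (57.5%) and 4 in Snhg11 (78.6%), where the median of all entries was 5. Gas5 has a second entry with a run of 3 (93.7%). In Snhg12, Snhg8 and the start of Gas5 shown, the run spans the start itself. It begins at base 5 of the transcript in Snhg1, base 3 in Snhg3 and base 8 in Snhg5. In Snhg11 it lies wholly before the start.

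The hosts differed widely in level. Means over the 6 libraries were 18.9 FPKM for Snhg3, 18.6 for Snhg11, 12.4 for Snhg8, 12.2 for Snhg5, 5.89 for Snhg6, 4.26 for Snhg12, 2.16 for Gas5 and 1.85 for Snhg1. Only the step between Snhg5 and Snhg6 had the higher gene above the lower one in 6 of 6 libraries. The other neighbours changed places in at least 1 library, and Snhg3 was above Snhg11 in only 2 of 6. Snhg3 stood above 89.9% of 8213 tested long non-coding genes, Snhg6 above 48.5%, Gas5 above 10.7% and Snhg1 above 7.26%. Gas5 and Snhg1 were below the median of the olfactory receptor genes, which encode odorant receptors of the nose (2.34 FPKM over 1092 genes).

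The low rank of Gas5 and Snhg1 among the hosts depends on gene length. The deposited values of every host but Snhg12 are whole reads when multiplied by the length of the longest transcript. In Gas5 that is a retained-intron form of 2556 nucleotides, while its longest form without a retained intron has 665 and 10 exons. Per that shorter length, chosen after the data were seen, Gas5 would have a mean of 8.30 FPKM and Snhg1 of 7.13 (2728 against 709 nucleotides), both above Snhg6 and Snhg12. The length behind the deposited values of Snhg12 is not known, so its place among the hosts is uncertain. Snhg8 would have 18.2 and Snhg5 14.8. The shorter length was applied to the hosts only, so these means cannot be set against the values of other genes. Which form the reads came from was not tested.

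**Figure D2:**
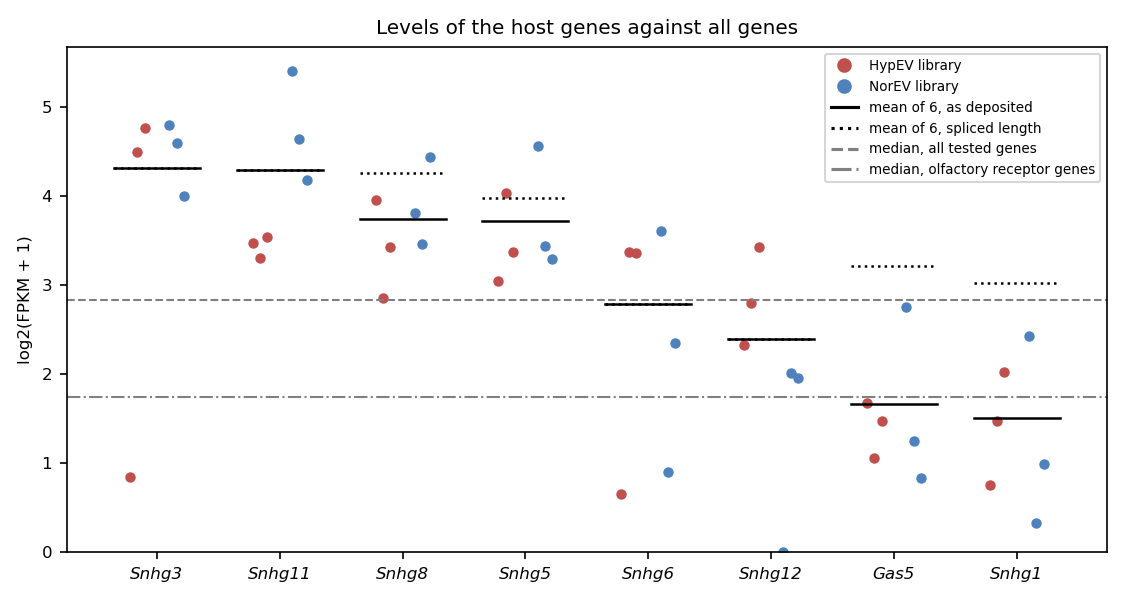
Each point is 1 library on the log2(FPKM + 1) scale (y axis), with hosts ordered by their mean (x axis). Solid bars are means of 6 libraries as deposited, dotted bars those with the length of the longest transcript without a retained intron, and grey lines the medians over all tested genes and over olfactory receptor genes. Snhg3 and Snhg11 lead, and Gas5 and Snhg1 lie below the all-gene median as deposited. Their dotted bars lie above it, but the shorter length was applied to the hosts only and not to the medians.

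Between HypEV and NorEV, none of the 8 hosts passed the test (limma on log2(FPKM + 1), Benjamini-Hochberg adjusted p under 0.05), where 0.0159% of 44125 tested genes passed, 0.00227% as higher and 0.0136% as lower in HypEV. All 8 entered the test, which took genes averaging 1 FPKM or more. At an unadjusted p under 0.05 there was 1 host of 8, Snhg11, against 6.76% of tested genes (6.13% lower in HypEV), and limma-voom on recovered reads called 0 of 7. Snhg11 and Snhg12 were the hosts whose groups did not overlap, which 11.9% of tested genes shared (10.3% after rescaling outside the Gm23935 group, when Snhg12 was the 1 such host). Log2 fold changes were below 0 in 5 hosts and above 0 in 3, with a median of -0.25 against -0.44 for all tested genes, and with values rescaled outside the Gm23935 group 3 were below and 5 above 0 (median 0.12 against -0.12).

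Snhg11 is known in mouse brain as a long RNA enriched in neurons, and it held most of the reads on these hosts. It had 10.1, 8.85 and 10.6 FPKM in HypEV 1, 2 and 3, against 41.2, 23.9 and 17.1 FPKM in NorEV 1, 2 and 3. These values rest on 127, 75 and 82 reads in HypEV and 264, 198 and 150 reads in NorEV, the most of the 7 hosts with known reads in every library. All HypEV libraries were below all NorEV libraries, as for 10.8% of tested genes. The means were 9.85 ± 0.899 FPKM in HypEV and 27.4 ± 12.4 in NorEV (SD, n = 3 each), and the log2 fold change of -1.30 ± 0.44 (SE) did not pass (limma, adjusted p = 0.689). Rescaled outside the Gm23935 group, Snhg11 had 20.1, 9.03 and 14.0 FPKM in HypEV, against 43.1, 24.0 and 17.2 in NorEV. The groups then overlapped, with HypEV 1 above NorEV 3, and the log2 fold change was -0.89 (limma, adjusted p = 0.861). Without NorEV 1, the highest library, it was -0.97 and no host had an unadjusted p under 0.05.

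Snhg12, the host of 3 kinds of H/ACA and 1 C/D box snoRNA, went the other way in value. It had 4.004, 5.93 and 9.74 FPKM in HypEV 1, 2 and 3, against 0, 3.03 and 2.87 FPKM in NorEV 1, 2 and 3. All HypEV libraries were above all NorEV libraries, as for 1.1% of tested genes, and for 4.03% after rescaling, when Snhg12 again did not overlap. The log2 fold change was 1.53 ± 0.73 (SE) and did not pass (limma, adjusted p = 0.720). In steps of the smallest value per fragment, Snhg12 had 2, 2 and 3 in HypEV, against 0, 1 and 1 in NorEV. Its values did not give whole reads at the annotated length, so its read numbers are not known. If a step is 1 read, which was not tested, no library held more than 3 reads, the number that a 0 allows. After rescaling the log2 fold change was 1.93 (limma, adjusted p = 0.854), and Snhg12 in place of Snhg11 was the host with an unadjusted p under 0.05.

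**Figure D3:**
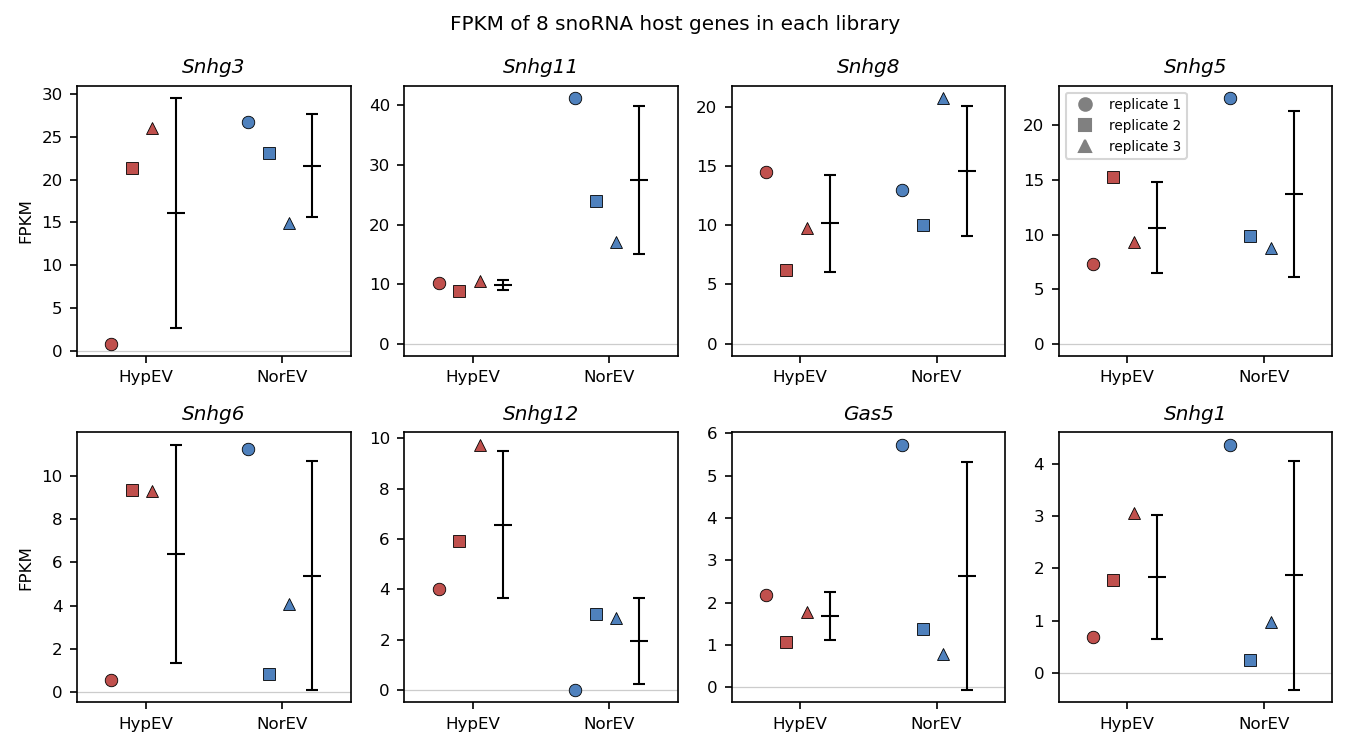
FPKM (y axis) of each host in the 3 HypEV libraries (red) and the 3 NorEV libraries (blue), with the mean and SD beside each group. Snhg11 lies between 8.85 and 10.6 in HypEV and from 17.1 upward in NorEV, Snhg12 lies higher in HypEV, and the groups overlap in the other 6.

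Snhg3, the U17 host, was high in 5 libraries and nearly absent in 1. It had 0.804, 21.4 and 26.1 FPKM in HypEV 1, 2 and 3, against 26.8, 23.1 and 15.0 FPKM in NorEV 1, 2 and 3. HypEV 1 held 1 read, while the other HypEV libraries held 18 and 20 and the NorEV libraries 17, 19 and 13. The log2 fold change was -1.10 ± 0.96 (SE; limma, adjusted p = 0.798), and it was -0.81 after rescaling and 0.16 without HypEV 1. Snhg6, which hosts Snord87, was also at 1 read in HypEV 1, with 0.572, 9.32 and 9.28 FPKM in HypEV, against 11.2, 0.867 and 4.10 in NorEV. NorEV 2 held 1 read of Snhg6 too, and the groups overlapped (log2 fold change 0.17 ± 0.96 SE, 0.43 after rescaling; limma, adjusted p = 0.970 as deposited).

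Snhg1, the host of Snord22 (U22) and 7 other snoRNA genes, had 0.685, 1.77 and 3.05 FPKM in HypEV 1, 2 and 3, against 4.36, 0.259 and 0.981 FPKM in NorEV 1, 2 and 3. That is 4, 7 and 11 reads in HypEV, against 13, 1 and 4 in NorEV. The groups overlapped, with the highest and the lowest value both in NorEV (HypEV over NorEV on the log2 scale 0.17 ± 0.80 SE, 0.42 after rescaling; limma, adjusted p = 0.964 as deposited). Snhg1 and Snhg6 followed each other over the 6 libraries (Pearson r = 0.89 on log2(FPKM + 1)), and Snhg11 and Snhg12 ran against each other (r = -0.89). Over all 28 pairs of hosts the median r was 0.16, and all values share their libraries' totals.

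Gas5, named for its rise in growth-arrested cells, had 2.19, 1.08 and 1.78 FPKM in HypEV 1, 2 and 3, against 5.73, 1.38 and 0.785 FPKM in NorEV 1, 2 and 3. These are 12, 4 and 6 reads in HypEV, against 16, 5 and 3 in NorEV. NorEV held both the highest and the lowest library, and the log2 fold change of -0.21 ± 0.74 (SE) did not pass (limma, adjusted p = 0.949). Its sign turned after rescaling outside the Gm23935 group (0.11). As deposited, NorEV 1, at the top for Gas5, was also the highest library for Snhg1, Snhg3, Snhg5, Snhg6 and Snhg11. After rescaling, HypEV 3 was the highest for Snhg3 (34.5 FPKM against 28.0 in NorEV 1) and Snhg6 (12.3 against 11.7).

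Snhg5, the host of the U50 snoRNAs Snord50a and Snord50b, had 7.27, 15.3 and 9.30 FPKM in HypEV 1, 2 and 3, against 22.5, 9.85 and 8.77 FPKM in NorEV 1, 2 and 3. Snhg8, the host of Snora24, had 14.4, 6.24 and 9.76 FPKM in HypEV, against 13.0, 10.03 and 20.7 FPKM in NorEV. The groups overlapped in both, with 15 to 30 reads of Snhg5 and 7 to 24 of Snhg8 per library. Their log2 fold changes were -0.28 ± 0.51 and -0.49 ± 0.48 (SE), and neither passed (limma, adjusted p = 0.891 and 0.80). After rescaling that of Snhg5 was 0.13 and that of Snhg8 was -0.0697.

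**Figure D4:**
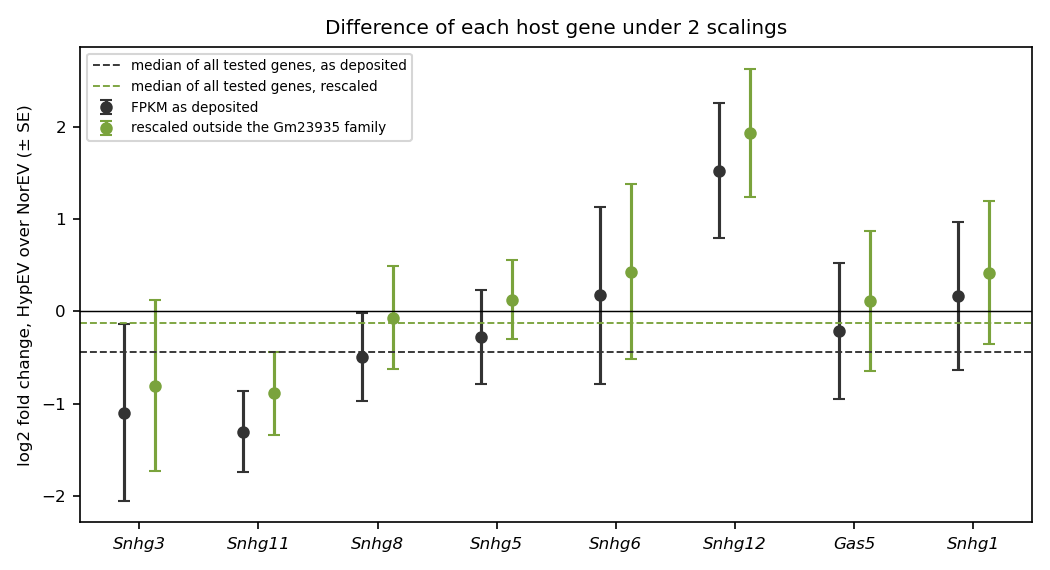
Log2 fold change, HypEV over NorEV, with its SE (y axis) for each host (x axis), for FPKM as deposited and rescaled outside the Gm23935 group; dashed lines are the medians of all tested genes. Rescaling moves every host upward, and Snhg5 and Gas5 cross 0, while rescaled Snhg11 is at -0.89 and Snhg12 at 1.93.

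Reads on the 7 hosts with whole reads were 0.00878% of the fragments in HypEV 1 (95% Wilson interval 0.00761 to 0.0101), 0.0103% in HypEV 2 (0.00878 to 0.0121) and 0.0117% in HypEV 3 (0.00996 to 0.0137). In NorEV 1, 2 and 3 they made up 0.0330% (0.0298 to 0.0366), 0.0178% (0.0158 to 0.0202) and 0.0144% (0.0126 to 0.0164), where the intervals cover counting error only. Every HypEV share was below every NorEV share. With the Gm23935 group left out of the totals the shares were 0.0174%, 0.0105% and 0.0154% in HypEV and 0.0345%, 0.0179% and 0.0144% in NorEV, and the groups overlapped. Snhg11 gave 67.6%, 50.3% and 53.2% of these reads in HypEV and 73.1%, 78.6% and 69.8% in NorEV. Without it, 61, 74 and 72 reads remained in HypEV, against 97, 54 and 65 in NorEV, which overlap.

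The 3 counted snoRNA genes did not pass the test either (limma), and limma-voom called 0. At an unadjusted p under 0.05 limma had 1 of 3, Snora73b, against 6.76% of tested genes. Snora73b had 2, 4 and 1 reads in HypEV 1, 2 and 3 and 0 in each NorEV library (adjusted p = 0.572), and is named after its values were seen. Its groups did not overlap, as for 1.1% of tested genes with HypEV higher, and for 4.03% after rescaling, when Snora73b again did not overlap. It entered the test only through its HypEV reads, so the lack of overlap cannot serve as support for a difference. Snora73a, its near-copy in the same host, had 0, 1 and 3 reads in HypEV, against 0, 5 and 0 in NorEV (adjusted p = 0.929). Gm25129 had 0, 3 and 1 reads in HypEV, against 11, 1 and 4 in NorEV (HypEV over NorEV on the log2 scale -2.18 ± 1.16 SE, -2.07 after rescaling, adjusted p = 0.738 as deposited), and its groups overlapped where those of its host Snhg11 did not. A count of 0 allows up to 3 reads per library, and most of these counts lie within that limit. The value of Gm25129 was -1.04 without HypEV 1, -1.27 without NorEV 1 and -3.07 without either HypEV 2 or NorEV 2.

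The other 7 Snhg genes in the tables had means of 1.22 to 31.9 FPKM. Snhg17 was above all 8 hosts in its mean, with 21.6, 27.7 and 42.7 FPKM in HypEV, against 43.2, 28.0 and 28.2 in NorEV. Snhg14, which hosts imprinted C/D box snoRNA clusters, had 9.39, 20.3 and 11.03 FPKM in HypEV, against 20.7, 16.6 and 16.4 in NorEV, and Snhg10 had 9.75, 11.8 and 1.44 in HypEV, against 8.68, 1.34 and 17.8 in NorEV. Of the 7 genes 0 passed (limma; 0 at an unadjusted p under 0.05), and the groups overlapped in all of them. The smallest p were those of Snhg20 (log2 fold change -1.43 ± 0.71 SE) and Snhg18 (0.70 ± 0.64 SE), with adjusted p of 0.724 and 0.799 in limma. After rescaling they were at -1.22 and 1.07, and without HypEV 1, where it had 2 reads, Snhg20 was at -0.835. As deposited 1 of the 7 genes was above 0 and 6 below, and after rescaling 4 were above and 3 below.

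Genes that act with these hosts did not pass the test in either direction. Of 19 snoRNP proteins and assembly factors, which bind and mature the snoRNAs, 0 passed (limma). As deposited 4 were above and 15 below 0 (median log2 fold change -0.45), and after rescaling 9 were above and 10 below (median -0.0459). Fbl, fibrillarin, the methyltransferase of the C/D box particle, had 18.6, 36.7 and 18.5 FPKM in HypEV, against 46.3, 46.4 and 42.7 in NorEV, with no overlap (log2 fold change -0.92 ± 0.41 SE, -0.49 after rescaling; limma, adjusted p = 0.720 as deposited). Groups apart with HypEV lower, as in Fbl, were found in 10.8% of tested genes. Of the 19 genes 2 had groups apart, against 11.9% of all tested genes. Znhit3, a factor of snoRNP assembly, had 22.5, 18.0 and 19.0 FPKM in HypEV, against 2.75, 9.93 and 20.1 in NorEV (limma, adjusted p = 0.741). For all tested genes the median was -0.44 as deposited and -0.12 after rescaling.

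Nonsense-mediated decay factors, which limit several host RNAs in mammalian cells, had 0 of 14 past the test (limma). As deposited 2 were above and 12 below 0 (median log2 fold change -0.43), and after rescaling 7 were above and 7 below (median -0.0276). Magoh, of the exon junction complex, had 0.675, 17.0 and 5.47 FPKM in HypEV, against 47.6, 9.20 and 18.4 in NorEV, and Upf3a, a decay cofactor, had 2.40, 11.97 and 8.19 in HypEV, against 15.6, 13.6 and 13.6 in NorEV (limma, adjusted p = 0.720 and 0.738). The groups of Upf3a did not overlap, as for 10.8% of tested genes with HypEV lower. Of the 14 factors 2 had groups apart, against 11.9% of all tested genes.

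Other TOP mRNAs had 0 of 19 past the test (limma). The balance turned with the scaling: 8 were above and 11 below 0 as deposited (median log2 fold change -0.26), and 12 above and 7 below after rescaling (median 0.15). Eif3h, an initiation factor subunit, had 14.1, 17.1 and 19.9 FPKM in HypEV, against 48.8, 28.4 and 31.5 in NorEV, while Tpt1, the translationally controlled tumour protein, had 22.8, 21.9 and 34.3 in HypEV, against 14.1, 18.8 and 14.3 in NorEV. Neither passed (limma, adjusted p = 0.720 and 0.742). The groups of Eif3h did not overlap, as for 10.8% of tested genes with HypEV lower. Those of Tpt1 did not either, as for 1.1% with HypEV higher, and for 4.03% after rescaling, when Tpt1 again did not overlap. Of the 19 tested TOP mRNAs 2 had groups apart, against 11.9% of all tested genes. Of 10 regulators of TOP translation 0 passed, with 2 above and 8 below 0 as deposited (median -0.41) and 4 above and 6 below after rescaling (median -0.0896). The 2 of smallest p were Mtor, the kinase, with 5.07, 8.64 and 8.22 FPKM in HypEV, against 15.5, 11.98 and 10.7 in NorEV, and its partner Rptor, with 10.8, 17.2 and 7.46 in HypEV, against 18.0, 21.5 and 20.1 in NorEV (limma, adjusted p = 0.7504 and 0.741). The groups of Mtor and of Rptor did not overlap as deposited, as for 10.8% of tested genes with HypEV lower, and overlapped after rescaling. Of the 10 regulators 3 had groups apart as deposited, against 11.9% of all tested genes. Protein-coding genes with a snoRNA gene in an intron gave 0 of 204 past the test (limma). At an unadjusted p under 0.05 there were 5 of the 204, against 6.76% of all tested genes. As deposited 34 were above and 170 below 0 (median -0.36), and after rescaling 104 were above and 100 below (median 0.0272). Their smallest p were those of Defa29 and Enthd1 (log2 fold changes -2.90 and -1.75; limma, adjusted p = 0.572 and 0.676). In all of these lists limma-voom called 0 genes. At an unadjusted p under 0.05 limma had 1 of the 19 other TOP mRNAs, against the same 6.76%, and 0 of the snoRNP, decay and TOP regulator genes.

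The genes most like the mean of the 8 hosts over the 6 libraries, by Pearson r on log2(FPKM + 1) among 6487 named coding or long non-coding genes that averaged 10 FPKM or more, were Mmab and Hsp90aa1 (both r = 0.99), Alg12 (0.99), Atad2b (0.99) and Dpp6 (0.99). The mean of the hosts was 2.09, 2.92 and 3.17 in HypEV 1, 2 and 3 and 3.42, 2.58 and 2.75 in NorEV 1, 2 and 3. With 6 libraries and this many genes such values are a description only.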

How the data were processed

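RNA of vesicles in 3 HypEV and 3 NorEV libraries was compared, grouped by the titles in the labels. Trizol and a longRNA-seq kit of Epibiotek were used, per the labels' protocols. The authors deposited 1 table of FPKM values per library; the names mention HTSeq, a read counter. Aligner, build and annotation are not given in the sources used here. With the longest transcript of GENCODE M21 (53274 of 53379 genes matched), 96.0% of the values above 0 were whole reads, within 0.01 reads, which gave the totals. A 0 allows 3 reads, and 95% Wilson intervals cover counting error only.

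Genes averaging 1 FPKM or more were tested as log2(FPKM + 1), which understates changes of low genes, in limma 3.58.1 under R 4.3.3. The moderated test was two-sided, let the variance follow the mean and had no covariates, and p-values were adjusted by Benjamini-Hochberg over 44125 genes. The alternatives were other filters (none, 5 FPKM), pseudocounts (0.1, 5), scalings, weights, a replicate block, limma-voom on recovered reads and leaving out each library. The test was checked on simulated data. Near-identical means at least 90% identity over 80% of the length (blastn 2.17.0). Intervals came from scipy 1.17.1, tables from pandas 2.3.3 with numpy 2.4.6 in Python 3.11.15, and plots from matplotlib 3.10.9.

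The hosts and lists were chosen with earlier results of these data known. All hosts are named with every value; snoRNA genes with 5 reads in a library; of each list up to 4 genes that passed or the 2 of smallest p, and the 3 most abundant other Snhg genes. Sequences are from GENCODE M21 and, for the starts, RefSeq.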

Additional observations from a re-analysis of the deposited data

How the results depend on the processing

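None of the 8 hosts (7 in limma-voom, 5 with a mean of at least 5 FPKM) and none of the snoRNA genes within them passed under any of the 18 alternatives. Snhg8, Snhg11 and Snhg12 kept their sign in every alternative that gave them a value: the log2 fold change of Snhg11 was -1.58 to -0.85 (adjusted p 0.115 to 0.969) and that of Snhg12 0.73 to 2.68 (adjusted p 0.204 to 0.969). Without NorEV 1, Snhg12 had 0.865, and its library values span only 0 to 3 steps of the smallest value per fragment. The count of all genes called, 7, became 0 with no filter, a pseudocount of 0.1 or 5, no variance trend, median centring or a replicate block. It was 75 with array weights, 231 in limma-voom and 60 in limma-voom with the Gm23935 group left out, and 0 to 71 when a library was dropped: 71 for HypEV 2, 2 for HypEV 1 or NorEV 1 and 0 for HypEV 3, NorEV 2 or NorEV 3. Of the other lists 0 genes were called, except 1 in limma-voom (Kdr, log2 fold change -1.62, adjusted p = 0.0191). The share of reads on the hosts in HypEV, 0.0102%, became 0.0145% with the Gm23935 group left out of the totals.

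Signs of small differences turned. Snhg5 was 0.17 with median centring, 0.18 after quantile normalization, 0.13 after rescaling and 0.24 in limma-voom with the Gm23935 group left out. Gas5 was 0.24, 0.50, 0.11 and 0.30 in these, and 0.22 with array weights. Snhg17 was 0.32, 0.29, 0.30 and 0.30, and 0.27 with array weights. Snhg10 was 0.34, 0.46, 0.26 and 0.39. Snhg14 was 0.0107 with median centring and 0.0133 in limma-voom with the group left out. Snhg6 was -0.12 in limma-voom. With 1 library left out the ranges were -0.29 to 0.76 for Snhg1, -1.79 to 0.16 for Snhg3, -0.55 to 0.12 for Snhg5, -0.52 to 1.08 for Snhg6, -0.60 to 0.36 for Gas5, -0.33 to 1.91 for Snora73a, -0.39 to 0.0839 for Snhg17 and -0.96 to 0.64 for Snhg10. Gm25129 (-3.07 to -1.04) and Snhg20 (-2.05 to -0.835) stayed below 0. The cause was not tested.

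Deviations from the group means correlated at 0.04, 0.10 and -0.06 for replicate numbers 1, 2 and 3. HypEV 1 and 2 correlated best with the NorEV library of their own number, and HypEV 3 with NorEV 1. With 3 libraries per group these values cannot show whether the replicate numbers pair the libraries. The replicate block called 0 of 8 hosts. Snhg11 had 75 to 264 reads per library and the other hosts with known reads 1 to 30.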
